A study of Astyanax mexicanus with 78 samples.

Results

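The 100 genes described here were genes of the Mexican tetra, Astyanax mexicanus, shared by gut and liver and chosen for a high level relative to brain, heart and muscle. They were taken from 19076 genes counted in each of 5 tissues. Counts were scaled to a library total of 1000000 (CPM), and the median over the libraries of each tissue was used. In all, 593 genes had a median of at least 50 CPM in both gut and liver, and in 571 of these the gut and liver medians lay within 8-fold of each other. The lower of the gut and liver medians was divided by the highest of the brain, heart and muscle medians plus 1, and the 100 genes with the highest ratio were taken as members. These values chose the members and are given as a description without a test.

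RNA had been sequenced from surface fish, the eyed river form, and from blind Pachón cavefish, at an age of about 1 year (young) and of 7 to 8 years (aged). All fish were kept in laboratory aquaria, and population and age class were the only factors the labels gave. Gut gave 15 libraries and liver 16, with 4 in each of the 8 groups except surface aged gut, which had 3. The labels name 1 cave population and the surface morph, so a population difference is one between these fish.

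Liver and intestine both arise from the endoderm, and hepatocytes and enterocytes share a set of metabolic tasks that few other cells take on. Both assemble triglyceride-rich lipoproteins around apolipoprotein B, both can release free glucose made by gluconeogenesis, and both oxidise and conjugate foreign compounds before these spread through the body. Peroxisomes are abundant in both, where they shorten very long and branched fatty acids and break down hydrogen peroxide. In bulk tissue, fewer cells of a type cannot be told apart from less RNA per cell.

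The ratio ran from 70.7 for pck1 to 1.86 for COBLL1 at rank 100, with a median of 5.33. The gene just outside, ENSAMXG00000036111, had a ratio of 1.83, so the edge of the list did not mark a gap. The ratio was at least 10 for 37 members and under 3 for 27. No limit was set on the level in the other tissues. Member medians reached 251.5 CPM in brain, 292.3 CPM in heart and 250.3 CPM in muscle. The liver median exceeded the gut median in 46 members and the gut median was the higher in 54. Of the 100 members, 42 carried a gene name in the study's table of genes listed after ultraviolet exposure of larvae. The other 58 were known only by their Ensembl identifier. That table named 2079 of the 19076 genes, so the class sizes below cover named members only. Behind pck1, the ranks down to 12 were held by ENSAMXG00000040182, ENSAMXG00000039645, ENSAMXG00000004326, ENSAMXG00000034409, apoba, tm4sf5, ENSAMXG00000036087, ENSAMXG00000039005, cyp3a65, ENSAMXG00000018180 and ENSAMXG00000017413.

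Enzymes of glucose output had some of the highest ratios. For pck1, the cytosolic phosphoenolpyruvate carboxykinase that controls entry into gluconeogenesis, the median was 2193 CPM in gut, 1195 CPM in liver, 15.9 CPM in heart, 1.21 CPM in muscle and 0 in brain. The catalytic subunit of glucose-6-phosphatase, g6pca.2, which frees glucose for release, had medians of 1196 CPM in gut and 3585 CPM in liver. The ratio of g6pca.2 was 33.1, at rank 20.

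Lipoprotein assembly was represented by 5 named members with ratios between 4.75 and 52.4. Apolipoprotein B, apoba, the structural protein of chylomicrons and very low density lipoprotein, had medians of 4146 CPM in gut and 1086 CPM in liver against 19.8 CPM in heart. The triglyceride transfer protein mttp, which loads lipid onto apolipoprotein B, had medians of 65.7 and 137 CPM. The lipoprotein lipase cofactor apoc2, the lipid droplet protein cideb and pla2g12b, a phospholipase-like protein needed for lipoprotein loading in mouse and zebrafish, completed the group. CPM are not scaled by gene length, so levels were compared for 1 gene across tissues and not between genes.

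Genes grouped under detoxification formed the largest class among the 42 named members, with 10 members and ratios between 2.23 and 47.6. They included the cytochrome P450 gene cyp3a65, with medians of 322 CPM in gut, 447 CPM in liver and 5.76 CPM in heart, and ugt1a1, a glucuronosyltransferase that conjugates bilirubin in mammals. Glutathione transferases were represented by gstt1b, gsta.1, mgst1.2 and mgst2. The peroxisomal members cat, scp2a, acaa1 and hsd17b4 had ratios between 2.07 and 3.19, because they were also present in brain and heart. For catalase, cat, the medians were 460 CPM in gut, 560 CPM in liver and 144 CPM in brain.

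Among the regulators, foxa3, a forkhead transcription factor of endoderm, had a ratio of 19.6, with medians of 53.8 CPM in gut and 201 CPM in liver and at most 1.75 CPM in the other 3 tissues. KLF15, a transcription factor of fasting metabolism in mammals, and the mRNA decay factor zfp36l1b had ratios of 2.91 and 3.03. The mitochondrial uncoupling protein gene ucp1, known in mammals for heat production in brown fat, had medians of 245 CPM in gut and 758 CPM in liver against 11.8 CPM in heart. The genes of membrane and cell junctions (tm4sf5, tm4sf4 and the claudin cldn15lb) had ratios between 8.28 and 51.8.

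**Figure D1:**
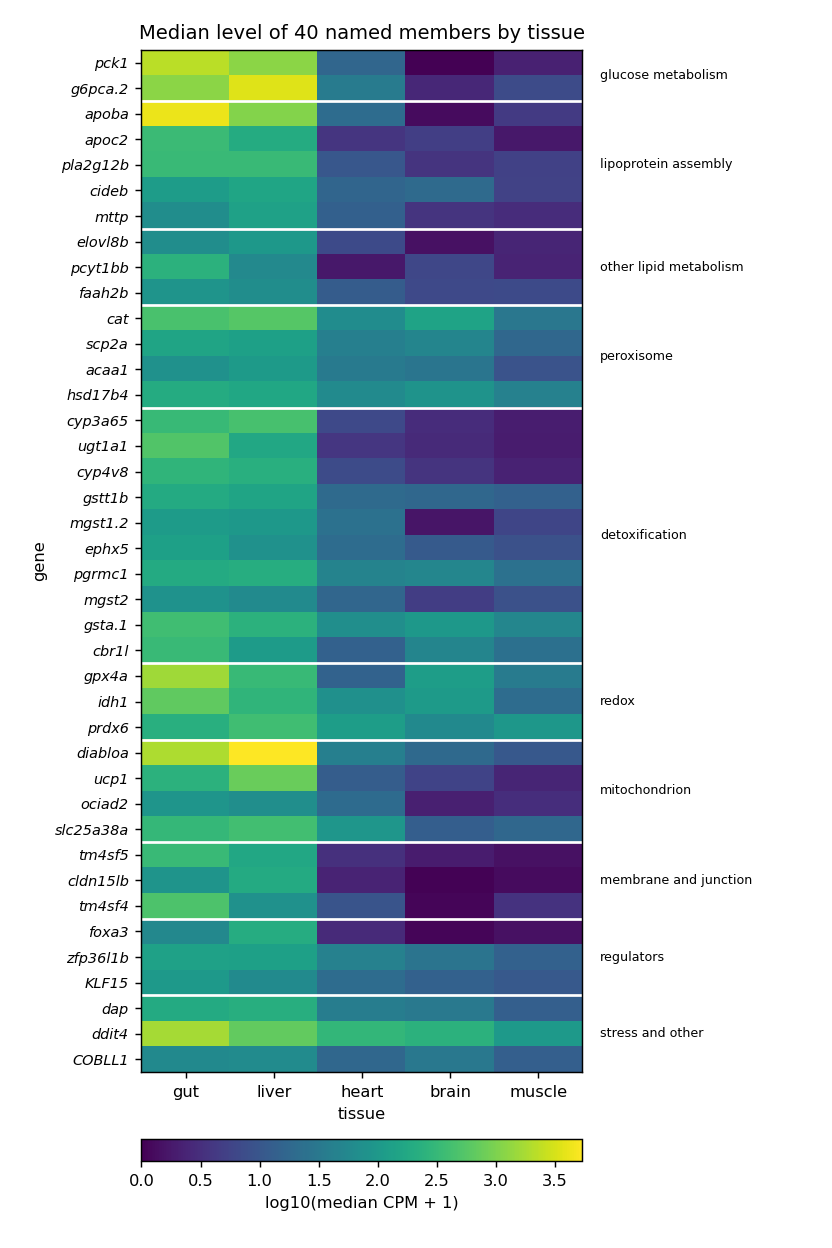
Median level of 40 named members in 5 tissues, as log10(median CPM + 1), with genes grouped by role. The gut and liver columns are the brightest in each row, as the rule requires, and the darkest cells of the other 3 tissues lie with genes such as pck1, apoba and foxa3, whereas peroxisomal genes such as cat and hsd17b4 keep a visible level in brain.

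The members took between 1.56% and 10.8% of all counts in gut libraries (median 4.75%) and between 1.33% and 14.9% in liver libraries (median 4.25%). In brain the share was between 0.232% and 0.291% and in muscle between 0.128% and 0.717%. In heart it was between 0.254% and 1.73%, with 1 library left out. At least 50 CPM were reached by 70 to 99 members in a gut library and by 63 to 100 in a liver library. In brain 14 to 19 members reached it, in muscle 5 to 32, and in the same heart libraries 11 to 57. In 71 of the 100 members, the median of every gut and liver group was at least 50 CPM.

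Several libraries stood apart or had counts on genes specific to another tissue. Liver-specific genes, those with a median of at least 100 CPM in liver and 16 times that of each other tissue, took 78.7% of the counts of cave young heart replicate 1, which the rule keeps out of the heart median. Heart was the highest of the other 3 tissues for 63 members, and 55 members had their highest value among the other 15 heart libraries in surface aged heart replicate 7, where liver-specific genes took 5.03% of counts. Liver-specific shares were higher in surface aged heart replicate 8 (16.4%), cave aged 7 (11.4%), cave aged 6 (7.80%) and cave young 2 (5.23%). In liver, cave young replicate 4 had 4.04% of its counts on gut-specific genes and cave aged replicate 7 had 0.697%, while the other 14 libraries had at most 0.110%. In surface young liver replicate 1 the 13 named enterocyte markers summed to 13.1 CPM and 98 members reached 50 CPM, while 68 did in surface aged 5 and surface young 4, where the markers summed to 4.23 and 5.47 CPM. In gut, liver-specific genes took 3.07% of the counts of cave aged replicate 8, where 99 members reached 50 CPM. They took 1.73% in cave young replicate 2, 1.72% in surface young replicate 4 and 1.55% in cave aged replicate 5. There, 84, 92 and 70 members reached 50 CPM. The lowest gut share was 0.0290%, in cave young replicate 3, where 86 members did. A median of at least 50 CPM in both tissues was part of the rule that chose the members, so these counts are a description only. The part of RNA from the other tissue in the member values was not tested. No hepatocyte, exocrine pancreas, goblet cell, erythrocyte or leukocyte marker of the lists used here carried a name. The smooth muscle, endocrine pancreas and adipocyte lists had 1 named gene each and the biliary list had 2. The labelled tissues were therefore checked mainly against enterocyte markers and tissue-specific genes.

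The share of counts on the members differed widely between libraries of 1 group. In gut it was 5.65% ± 1.91 (SD, n = 4) in surface young, 6.08% ± 4.11 (SD, n = 3) in surface aged, 3.63% ± 1.58 (SD, n = 4) in cave young and 4.55% ± 2.22 (SD, n = 4) in cave aged fish. In liver it was 8.23% ± 6.10, 6.12% ± 4.13, 6.35% ± 5.74 and 3.98% ± 1.31 (SD, n = 4 each) in the same order. The ranges of all groups overlapped within each tissue. Without cave young liver replicate 4 the cave young liver mean was 4.78%.

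The makeup of the libraries is given beside the member share as a description. In gut, the share was lowest in cave aged replicate 5 (1.56%), where the 13 enterocyte markers such as fabp2 and vil1 summed to 3349 CPM. It was highest in surface aged replicate 5 (10.8%), where they summed to 33077 CPM, and the markers were highest in surface young replicate 1 at 37788 CPM. The order was not the same throughout, with 4.79% at 8493 CPM in cave aged replicate 6 and 2.57% at 11804 CPM in cave young replicate 2. Gut-specific genes, whose share is a part of the same total, took 54.8% in cave aged replicate 5 and 56.8% in cave young replicate 2. They took 24.9% in surface aged replicate 5. In surface aged replicate 6 and cave aged replicate 8 they took 32.6% and 32.1%, beside member shares of 4.36% and 6.93%. In liver, where the member and liver-specific shares are parts of the same total, 6 libraries (surface young 1 and 3, surface aged 6 and 7, cave young 3 and 4) had member shares between 7.45% and 14.9% and liver-specific shares between 33.9% and 42.6%. The other 10 libraries had member shares between 1.33% and 5.61% and liver-specific shares between 60.5% and 78.6%. The 6 libraries came from 3 of the 4 liver groups and the other 10 from all 4. The part of library makeup in the member values was not tested.

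**Figure D2:**
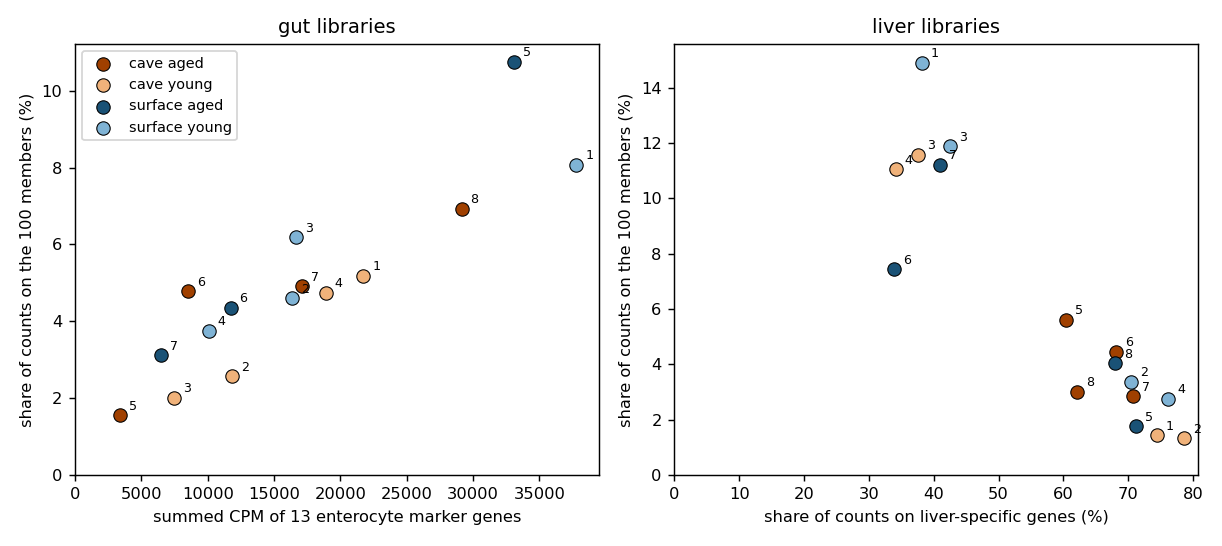
Share of all counts on the 100 members in each gut library against the summed CPM of 13 enterocyte markers (left), and in each liver library against the percentage taken by liver-specific genes (right). Each point is a library with its replicate number, coloured by group; in gut the share runs from 1.56% at 3349 CPM of markers to 10.8% at 33077 CPM, and in liver the 6 libraries above 7% all have liver-specific shares of at most 42.6%.

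The values below are normalized counts, that is, counts divided by the DESeq2 size factor of the library, over all libraries of the tissue. Single members spread widely between libraries of 1 group. For pck1 in liver, the values were 112000, 766, 10330 and 16430 in surface young fish and 20.9, 7946, 76370 and 25180 in surface aged fish. They were 801, 3072, 10290 and 23660 in cave young fish and 51470, 26160, 9526 and 6874 in cave aged fish. All groups overlapped, and no change with age was called (adjusted p = 0.954 in surface and 0.577 in cave fish). With 1 added to each value, the highest value of a member was divided by its lowest over all libraries of the tissue. These libraries span 4 groups. The median over the members was 7.25-fold in gut and 10.6-fold in liver, and 43 members in gut and 54 in liver reached at least 10-fold. For the 471 genes that met the level and 8-fold limits but not the ratio, the median was 2.74-fold in gut and 4.33-fold in liver. In gut, 51 of the 100 members had their highest value in surface aged replicate 5. In liver, 32 had theirs in surface young replicate 1 and 31 had their lowest value in surface aged replicate 5.

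Aging of the gut was examined first. A gene was called where the DESeq2 adjusted p over all genes was under 0.05. In surface fish gut, 12 members rose with age and 5 fell, of 99 with an adjusted p. Over all genes, 6.54% were called higher and 3.31% lower. The median log2 fold change of the members was 0.27, against -0.04 over all genes and 0.12 over the 471 genes that met the level limits only, of which 81 rose and 22 fell. The young and aged values did not overlap for 23 of the 100 members, 15 of them called, and for 18.4% of all genes. With the edgeR test 5 rose and 2 fell, where 2.03% of all genes were called.

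Peroxisomal fatty acid oxidation held 3 of the risen members. For hsd17b4, the peroxisomal bifunctional enzyme of the middle steps of the pathway, the values were 2079, 1959, 1362 and 1264 in the surface young gut and 19700, 5917 and 6145 in the surface aged gut. It rose 6.38-fold (log2 fold change 2.67 ± 0.51 SE, adjusted p = 1.58e-05). For scp2a, the sterol carrier protein and thiolase that acts on branched chains, the values were 1165, 932, 569 and 846 in young and 11320, 3838 and 2109 in aged fish, a 6.58-fold rise (2.72 ± 0.57 SE, adjusted p = 0.000141). All aged values of both genes lay above all young values, and in both the highest value was that of surface aged replicate 5. The third, the peroxisomal thiolase acaa1, had values of 931, 687, 719 and 801 in young and 8991, 1880 and 1708 in aged fish (2.43 ± 0.59 SE, adjusted p = 0.00152). With the edgeR test hsd17b4 kept its call, while scp2a and acaa1 lost theirs. The call of acaa1 was also lost in 1 fit over all 4 gut groups. The catalase gene cat did not pass (0.25 ± 0.69 SE, adjusted p = 0.888).

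Of the 10 named detoxification members 2 were called higher, and of the 5 lipoprotein members 1 was. For gstt1b (ENSAMXG00000033673), a theta-class glutathione transferase, the values were 1568, 1289, 1138 and 1170 in young and 5069, 4296 and 2940 in aged surface fish (1.68 ± 0.31 SE, adjusted p = 9.39e-06). For mgst1.2, a membrane-bound glutathione transferase, they were 714, 1028, 970 and 1011 in young and 6445, 5009 and 2054 in aged fish (2.29 ± 0.43 SE, adjusted p = 1.09e-05). No value of the aged group fell into the young range for either gene. For mttp the values were 667, 643, 659 and 335 in young and 3406, 3313 and 742 in aged fish (2.12 ± 0.55 SE, adjusted p = 0.00326), and its call was lost without surface aged replicate 6 (adjusted p = 0.0667). For apoba, which it loads, the log2 fold change was not called, at -0.68 ± 0.61 SE (adjusted p = 0.556).

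Of the 12 members that rose, 6 had no name. ENSAMXG00000039645, at rank 3, had values of 2252, 1300, 1065 and 1360 in young and 9419, 5499 and 5950 in aged surface fish (2.22 ± 0.39 SE, adjusted p = 2.18e-06). ENSAMXG00000015974 had the largest unnamed rise (2.70 ± 0.83 SE, adjusted p = 0.0179), and its groups overlapped. Without surface aged replicate 5, the library with the highest enterocyte marker sum of its group, ENSAMXG00000015974 changed by 0.49 (adjusted p = 0.606), and ENSAMXG00000039071 and ENSAMXG00000003551 also lost their calls. In the same fit hsd17b4 rose by 1.87, scp2a by 1.78 and acaa1 by 1.21 on the log2 scale, all still called (adjusted p = 6.04e-05, 0.00258 and 0.00489), and 9 members rose and 11 fell.

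The steepest fall was that of ENSAMXG00000036087, at rank 8, with values of 2883, 1331, 919 and 1092 in the surface young gut and 86.7, 48.0 and 76.8 in the surface aged gut. It was 22.1-fold lower in aged fish (-4.47 ± 0.50 SE, adjusted p = 8.57e-16). ENSAMXG00000010357 had values of 5088, 2829, 6801 and 5949 in young and 908, 228 and 567 in aged fish (-3.17 ± 0.51 SE, adjusted p = 1.59e-07). Both genes were separated without overlap and kept their calls without any 1 library. ENSAMXG00000037535 (-2.62 ± 0.69 SE), ENSAMXG00000011762 (-1.97 ± 0.61 SE) and pcyt1bb, an enzyme of phosphatidylcholine synthesis (-2.11 ± 0.68 SE, adjusted p = 0.0257), also fell. The call of pcyt1bb was lost without any of 4 single libraries, surface young 1 and 3 and surface aged 6 and 7.

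In cavefish gut, 1 member rose and 1 fell with age, where 3.09% of all genes were called higher and 2.46% lower. ENSAMXG00000030677 had values of 1792, 1226, 1474 and 2231 in young and 2991, 4944, 3063 and 2256 in aged cavefish (0.97 ± 0.31 SE, adjusted p = 0.0381). ENSAMXG00000042028 had values of 4804, 2799, 3191 and 4972 in young and 2250, 881, 2031 and 1773 in aged cavefish (-1.19 ± 0.35 SE, adjusted p = 0.0189). Of the 8 fits that left out 1 library, 2 kept the call of ENSAMXG00000030677 (adjusted p up to 0.17) and 6 that of ENSAMXG00000042028. Both calls were lost in 1 fit over all 4 gut groups, and that of ENSAMXG00000030677 also without independent filtering. Neither gene had overlapping groups, as was so for 4 of the 100 members and 10.3% of all genes, but the edgeR test called no member, with 13 at an unadjusted p under 0.05, against 16 for DESeq2. It called 0% of all genes. The median log2 fold change of the members was 0.28, against -0.00 over all genes and 0.30 over the 471 genes, of which DESeq2 called 53 higher and 6 lower. Without cave aged gut replicate 5 or replicate 8 the count of called members was 6, and without cave young 3, cave aged 6 or cave aged 7 it was 1. The peroxisomal members cat, scp2a, acaa1 and hsd17b4 had log2 fold changes between -0.20 and 0.74 here, and none was called.

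Values of other cell types beside these changes were as follows. The summed enterocyte markers were between 10060 and 37788 CPM in surface young and between 6461 and 33077 CPM in surface aged gut. In cavefish they were between 7455 and 21709 CPM in young and between 3349 and 29130 CPM in aged gut. Of the 13 markers, vil1 and fabp2 rose and ANPEP fell with age in surface fish, and fabp2 rose in cavefish. Transgelin, tagln, the only named smooth muscle marker, was between 848 and 2525 CPM in surface young and between 950 and 1019 CPM in surface aged gut, and between 1108 and 2027 CPM in cave young and between 260 and 967 CPM in cave aged gut. The part of cell makeup in the changes with age was not tested.

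**Figure D3:**
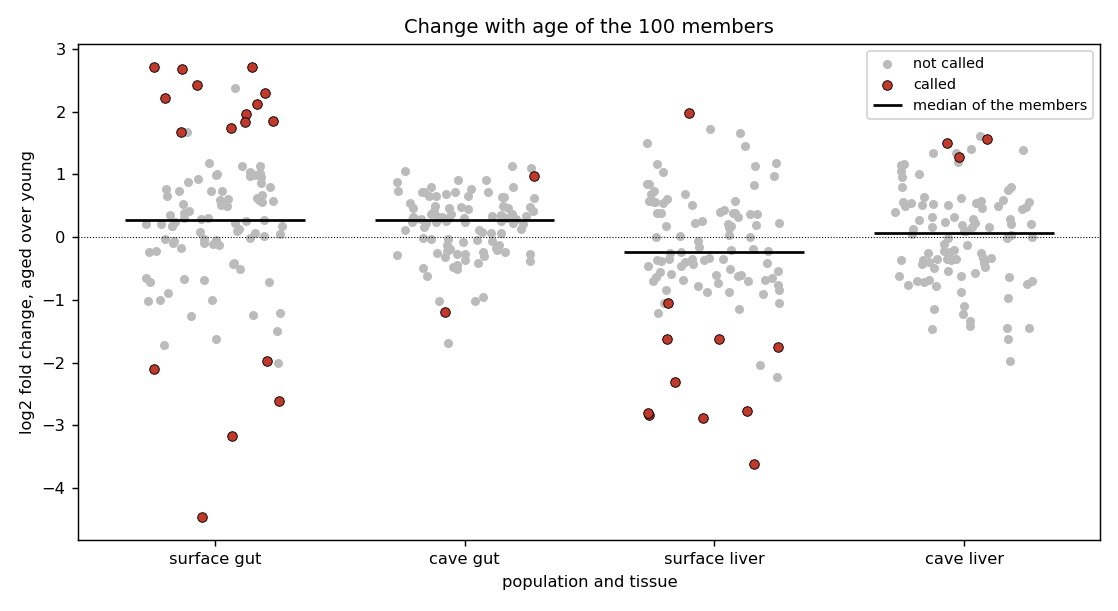
Log2 fold change, aged over young, of each of the 100 members in the 4 comparisons, with members called by DESeq2 (adjusted p under 0.05) in red and the median of the members as a bar. In surface gut 12 called members lie above 0 and 5 below, and in surface liver 1 lies above and 10 below, while 2 members in cave gut and 3 in cave liver are called.

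In surface fish liver the called members fell, with 10 lower and 1 higher of 100 tested. Over all genes, 2.08% were called lower and 3.11% higher. The median log2 fold change was -0.25 over the members, 0.02 over all genes and 0.21 over the 471 genes that met the level limits only, of which 27 rose and 18 fell. The young and aged values did not overlap for 14 of the 100 members, all 11 called ones among them, and for 9.49% of all genes. The edgeR test called no member, with 19 at an unadjusted p under 0.05 against 22 for DESeq2, and 0.726% of all genes. The lowest edgeR adjusted p among the called members was 0.0663, for ENSAMXG00000039005.

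Lipoprotein genes were among those that fell. For apoba, the values were 57340, 13880, 42280 and 24970 in surface young liver and 848, 2017, 11740 and 5752 in surface aged liver. It was 6.81-fold lower in the aged fish (-2.77 ± 0.73 SE, adjusted p = 0.00578). For pla2g12b, the values were 12780, 5903, 6254 and 7663 in young and 1640, 2426, 3510 and 2989 in aged fish, which was 3.09-fold lower (-1.63 ± 0.42 SE, adjusted p = 0.00489). Both calls held without any 1 library. The other lipoprotein genes were not called in surface liver, with mttp at 1.66 ± 0.58 SE (adjusted p = 0.0702), apoc2 at -0.51 ± 0.54 SE and cideb at -0.70 ± 0.59 SE.

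The largest fall in liver was that of ENSAMXG00000039005, with values of 54050, 8162, 16440 and 4854 in young and 1215, 1369, 932 and 3194 in aged surface fish (-3.62 ± 0.72 SE, adjusted p = 6.93e-05). ENSAMXG00000035436 (-2.88 ± 0.68 SE) and ENSAMXG00000024351 (-2.83 ± 0.71 SE) followed. ENSAMXG00000011762 was called lower with age in both surface tissues. Its liver values were 33610, 15650, 20910 and 18400 in young and 1086, 4323, 10300 and 2288 in aged fish (-2.31 ± 0.63 SE, adjusted p = 0.00870). In gut they were 35760, 15450, 39800 and 15440 in young and 13120, 2823 and 4319 in aged fish (adjusted p = 0.0186). It was the only member called in 2 of the 4 age comparisons, and 31 were called in 1. Its gut call was lost without surface young 1 or 3 or surface aged 6 or 7 (adjusted p up to 0.145) and its liver call without surface young 1 (0.0519). COBLL1, at the edge of the list, fell as well (-1.05 ± 0.29 SE, adjusted p = 0.00983), a call lost without any 1 of 5 libraries, the 4 surface young ones and surface aged 5 (adjusted p up to 0.101). The 1 member that rose, ENSAMXG00000032600, had values of 612, 284, 355 and 203 in young and 1207, 1951, 1812 and 796 in aged fish (1.98 ± 0.48 SE, adjusted p = 0.00184).

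In cavefish liver 3 members rose with age and none fell, where 1.57% of all genes were called higher and 0.771% lower. The mitochondrial carrier slc25a38a, which brings glycine in for heme synthesis, had values of 3709, 2523, 1346 and 3581 in young and 6102, 11440, 7194 and 7986 in aged cavefish (1.56 ± 0.41 SE, adjusted p = 0.0149). ENSAMXG00000034235 had values of 1421, 1354, 2181 and 1664 in young and 3732, 3688, 3988 and 7144 in aged cavefish (1.50 ± 0.35 SE, adjusted p = 0.00333). ENSAMXG00000040049 had values of 504, 699, 638 and 621 in young and 1270, 1254, 1510 and 1926 in aged cavefish (1.28 ± 0.28 SE, adjusted p = 0.000737). The aged values of all 3 lay above the young ones, and 7 of the 100 members and 6.84% of all genes had no overlap. The call of slc25a38a was lost without cave young replicate 2 or cave aged replicate 6 (adjusted p up to 0.151). In 1 fit over all 4 liver groups, slc25a38a and ENSAMXG00000034235 lost their calls and ENSAMXG00000040049 kept its own.

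Cave young liver replicate 4 is labelled young but is headed as old in a published count table. As given above, it had 4.04% of its counts on gut-specific genes. Counted as aged, it left none of these 3 called and 1 other member was called. With it left out, 4 members were called. Without cave aged liver replicate 5, 8 members were called. The edgeR test called no member, with 16 at an unadjusted p under 0.05 against 21 for DESeq2, and 0% of all genes. For apoba in cavefish liver the values were 6342, 5903, 33290 and 33400 in young and 10560, 14820, 23130 and 42640 in aged fish, with no call (0.23 ± 0.69 SE).

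**Figure D4:**
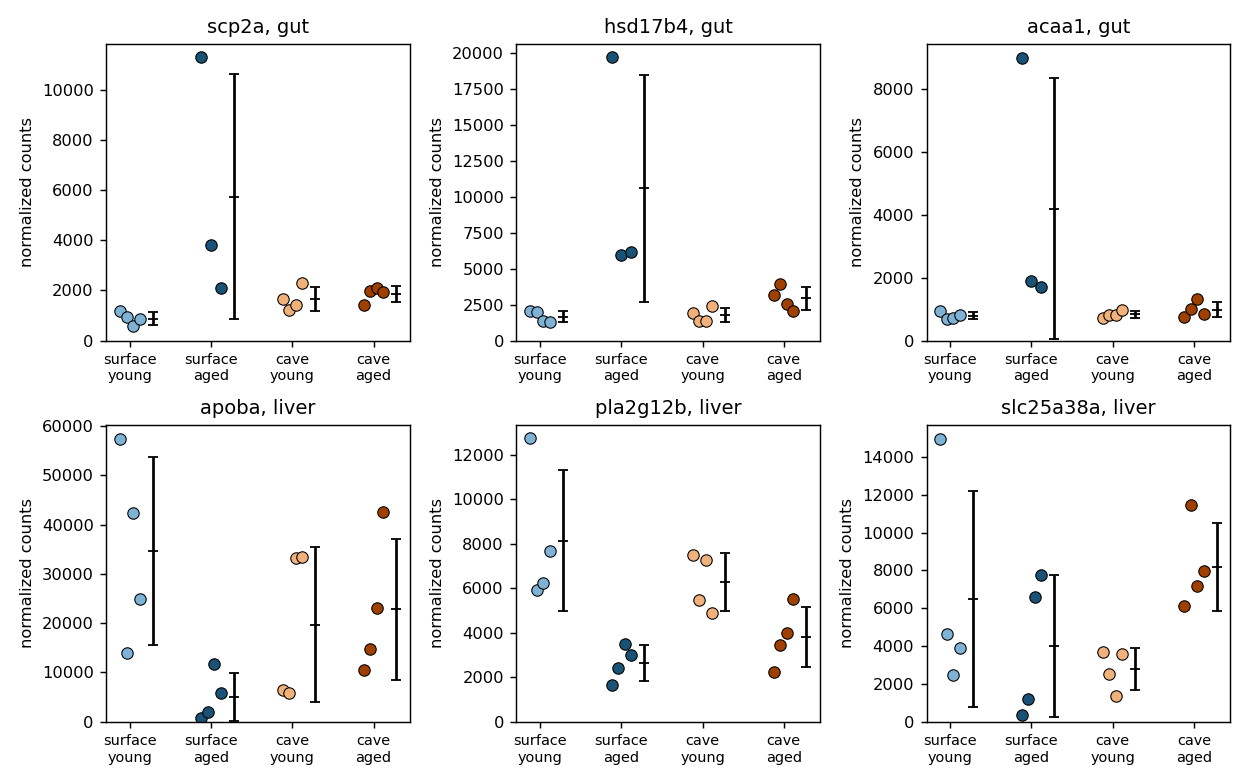
Normalized counts per library for 3 peroxisomal genes in gut (scp2a, hsd17b4, acaa1) and for apoba, pla2g12b and slc25a38a in liver, with the mean and SD of each group at its right. The 3 surface aged gut values of each peroxisomal gene lie above the 4 surface young values, the surface aged liver values of apoba and pla2g12b lie below the young ones, and slc25a38a is higher in aged than in young cavefish liver.

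Cave and surface fish were then compared over both ages, with age as a covariate. In gut, 12 members were lower in cavefish and 3 higher, of 97 with an adjusted p, where 7.17% of all genes were called lower and 6.04% higher. The median log2 fold change was -0.31 over the members, -0.08 over all genes and 0.06 over the 471 genes, of which 28 were higher and 20 lower in cavefish. The groups did not overlap for 2 of the 100 members and 2.19% of all genes. The edgeR test called 10 members (8 lower and 2 higher), where 8.57% of all genes were called. Enterocyte markers were between 3349 and 29130 CPM in cave gut and between 6461 and 37788 CPM in surface gut. Of the 13 markers, only alpi.1 (gut median 1.04 CPM) and fabp2 (849 CPM) were called, both lower in cavefish. The copy alpi.2, with a gut median of 1196 CPM, was not called. The part of the markers was not tested.

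The cytochrome P450 gene cyp3a65 (ENSAMXG00000012560) was lower in cavefish in both tissues. In gut its normalized counts ran from 685 to 7010 in cavefish, with a median of 1697, and from 3538 to 16970 in surface fish, with a median of 7848. It was 4.36-fold lower (-2.12 ± 0.46 SE, adjusted p = 0.000151). In liver they ran from 1232 to 8542 in cavefish (median 3144) and from 2944 to 17940 in surface fish (median 10033), which was 3.17-fold lower (-1.66 ± 0.41 SE, adjusted p = 0.00140). In both tissues the ranges overlapped and both calls held without any 1 library and with the edgeR test. A second identifier with the same name, ENSAMXG00000035565, which is not a member, was higher in cavefish liver (1.93 ± 0.47 SE, adjusted p = 0.00140) and was not called in gut (0.41 ± 0.32 SE, adjusted p = 0.449). Whether reads were split between these identifiers in the counting was not tested.

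ENSAMXG00000006024 was also lower in cavefish in both tissues. In gut it ran from 262 to 1910 in cavefish (median 562) and from 1684 to 7346 in surface fish (median 2905), with a log2 fold change of -2.34 ± 0.39 SE (adjusted p = 1.34e-07). In liver it ran from 1631 to 4249 in cavefish (median 2919) and from 3170 to 23050 in surface fish (median 10392), with -1.60 ± 0.35 SE (adjusted p = 0.000260). ENSAMXG00000017535 moved in opposite directions. It was higher in cavefish gut, from 2088 to 15640 against 484 to 3574 in surface fish (1.98 ± 0.44 SE, adjusted p = 0.000258), and lower in cavefish liver, from 179 to 16510 against 3577 to 43340 (-1.67 ± 0.58 SE, adjusted p = 0.0482). Its liver call was lost without any 1 of 12 libraries. These 3 genes were the only members called in both tissues, whereas 12 were called in gut only and 5 in liver only, and the difference between tissues was not tested.

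Further gut members lower in cavefish were ENSAMXG00000034409, which ran from 314 to 1689 in cavefish and from 2719 to 7826 in surface fish, without overlap (-2.06 ± 0.37 SE, adjusted p = 1.38e-06), and ENSAMXG00000042028, from 881 to 4972 against 5426 to 20280, also without overlap (-1.76 ± 0.30 SE, adjusted p = 2.11e-07). The uncoupling protein gene ucp1 ran from 706 to 4625 in cavefish and from 1602 to 14440 in surface fish (-1.44 ± 0.41 SE, adjusted p = 0.00650). The change of dap, a gene linked to autophagy in mammals, was the smallest of those called (-0.52 ± 0.14 SE, adjusted p = 0.00291). Higher in cavefish gut beside ENSAMXG00000017535 were ENSAMXG00000036087 (1.91 ± 0.66 SE, adjusted p = 0.0326) and ENSAMXG00000000017 (1.42 ± 0.34 SE, adjusted p = 0.000748). The first of these was low only in the 3 surface aged libraries, as given above. Its call was kept in 8 of the 15 fits that left out 1 library (adjusted p up to 0.245). It was lost with the edgeR test and with a block for replicate number.

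In liver, 5 members were lower and 3 higher in cavefish, where 3.1% of all genes were called lower and 5% higher. The median log2 fold change was -0.13 over the members, 0.01 over all genes and 0.15 over the 471 genes, of which 20 were higher and 6 lower in cavefish. The groups did not overlap for 1 of the 100 members and 1.2% of all genes. The edgeR test called 4 members, 2 in each direction, and 4% of all genes. Higher in cavefish was gpx4a, the glutathione peroxidase that reduces lipid hydroperoxides in membranes. It ran from 3151 to 10530 in cavefish liver (median 6180) and from 946 to 4061 in surface fish (median 2892), with 1.24 ± 0.36 SE (adjusted p = 0.0102). Its call held without any 1 library but was lost with the edgeR test. ENSAMXG00000000135 was higher without overlap, from 1567 to 3054 in cavefish and from 782 to 1394 in surface fish (1.00 ± 0.19 SE, adjusted p = 1.23e-05). ENSAMXG00000040049 was higher in cavefish as well (adjusted p = 0.00195). ENSAMXG00000010357 was lower (-2.07 ± 0.64 SE, adjusted p = 0.0205), as was COBLL1 (-0.69 ± 0.20 SE, adjusted p = 0.00890). Both calls were lost with the edgeR test. That of ENSAMXG00000010357 was also lost without cave young 1, surface young 3 or surface aged 8 (adjusted p up to 0.108). That of COBLL1 was also lost with cave liver replicate 4 counted as aged. Of the enterocyte markers, mep1a.1 and anpepb were called higher in cavefish liver, where cave young replicate 4 had a marker sum of 7613 CPM. Their part was not tested. Without that library, 7 members were called.

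**Figure D5:**
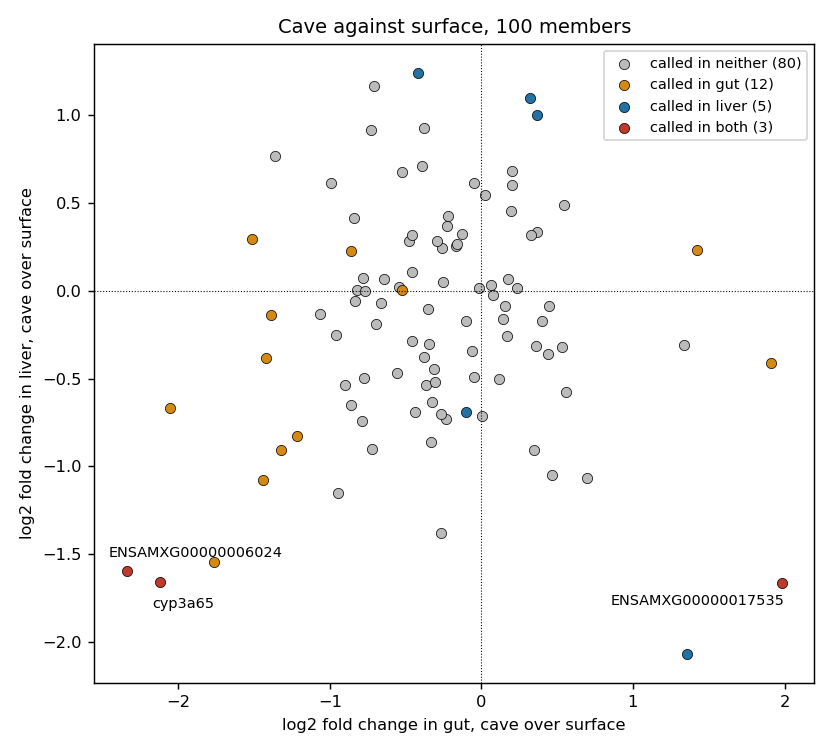
Log2 fold change, cave over surface, of each of the 100 members in gut (horizontal) and liver (vertical), coloured by the tissue in which DESeq2 called it. The 3 members called in both tissues are labelled: cyp3a65 and ENSAMXG00000006024 lie at the lower left and ENSAMXG00000017535 at the lower right, and 80 members are called in neither tissue.

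Whether age acted differently in the 2 populations was tested directly as the population by age interaction, where a positive value means a more positive change in cavefish. In gut, 4 members had a negative and 2 a positive interaction of 99 with an adjusted p, where 0.742% and 0.756% of all genes were called. For scp2a the interaction was -2.54 ± 0.63 SE (adjusted p = 0.00825). Its values were 1672, 1239, 1408 and 2313 in cave young and 1411, 1987, 2118 and 1947 in cave aged gut, and its change with age in cavefish was 0.16 ± 0.26 SE, against 2.72 in surface fish. Among the glutathione transferases, gstt1b (ENSAMXG00000033673) had an interaction of -1.20 ± 0.33 SE (adjusted p = 0.0281). That call was kept in 5 of the 15 fits that left out 1 library (adjusted p up to 0.108) and was lost with the edgeR test. For hsd17b4 the interaction was -1.92 ± 0.57 SE (adjusted p = 0.0523) and for mgst1.2 -1.81 ± 0.57 SE (adjusted p = 0.0755). A difference between the populations was not established for hsd17b4 and mgst1.2.

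ENSAMXG00000036087 had the largest interaction in gut, 5.19 ± 0.76 SE (adjusted p = 2.42e-08). In cavefish its values were 1436, 2142, 763 and 1303 in young and 710, 1434, 2980 and 4204 in aged gut, so the groups that were 22.1-fold apart in surface fish overlapped in cavefish. It was the 1 member the edgeR interaction test called (adjusted p = 0.0195), where 0.105% of all genes were called. ENSAMXG00000010357 (2.92 ± 0.86 SE, adjusted p = 0.0494), ENSAMXG00000039645 (-1.93 ± 0.55 SE, adjusted p = 0.0392) and ENSAMXG00000005048 (-1.48 ± 0.38 SE, adjusted p = 0.0150) were the others. The count of 6 was 12 without surface aged gut replicate 7, 2 without cave young replicate 4, and 3 without cave aged replicate 7, surface young replicate 3 or surface young replicate 4. Of the 15 fits that left out 1 library, 4 kept the call of ENSAMXG00000010357 and 6 that of ENSAMXG00000039645. The call of ENSAMXG00000005048 was kept in 14, and those of ENSAMXG00000036087 and scp2a in all 15.

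In liver, 2 members had a positive and 1 a negative interaction, where 0.821% and 0.637% of all genes were called. ENSAMXG00000039005 fell in surface fish as given above, and in cavefish its values were 4825, 6673, 17980 and 23290 in young and 6883, 11870, 18190 and 16750 in aged liver (interaction 3.66 ± 0.96 SE, adjusted p = 0.0188). ENSAMXG00000006024 had values of 15260, 23050, 13780 and 12850 in surface young, 3340, 3170, 7934 and 4765 in surface aged, 2704, 1631, 4249 and 2578 in cave young and 2229, 3134, 3317 and 3497 in cave aged liver (interaction 1.88 ± 0.53 SE, adjusted p = 0.0366). Of its surface aged values, 2 lay within the range of the cavefish values. ENSAMXG00000011341 had values of 785, 677, 243 and 305 in surface young and 1130, 1378, 1371 and 689 in surface aged liver. In cavefish it had 2971, 1941, 1273 and 1422 in young and 1111, 498, 825 and 353 in aged liver (interaction -2.63 ± 0.66 SE, adjusted p = 0.0126), although neither change was called by itself.

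The count of liver interaction calls moved with single libraries. None was made without cave young replicate 1 and 8 were made without surface aged replicate 8. There was 1 without cave young 2, cave aged 8, surface young 1 or surface aged 5, and 5 without cave aged 5. Of the 16 fits that left out 1 library, 5 kept the call of ENSAMXG00000006024. The call of ENSAMXG00000039005 was kept in 11 and that of ENSAMXG00000011341 in 15. The edgeR test called no member, with 10 at an unadjusted p under 0.05 against 13 for DESeq2, and 0.0651% of all genes. For apoba the interaction in liver was 2.97 ± 1.06 SE (adjusted p = 0.139), so the fall in surface fish was not shown to differ from the change in cavefish.

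The members were set beside other named genes of the same pathways, whether members or not. Names were at hand for 2079 genes that the study listed after ultraviolet exposure of larvae, so each list was incomplete. In surface gut 6.54% and in cavefish gut 3.09% of all genes were called higher with age, and no list was tested against these. Of 10 named genes on the peroxisome and bile acid list, 6 rose and none fell with age in surface gut, with a list median of 1.98 against -0.04 over all genes. These were phyh, pex11a, acox3, nr0b2b, scp2a and ddost, the last being a subunit of the enzyme that attaches sugars to proteins, caught by the prefix of another gene. In cavefish gut 3 of the 10 rose (pex11a, acox3 and ddost). Of 16 genes of fatty acid handling, 6 rose in surface gut (etfa, acaa1, acox3, hsd17b4, fabp2 and dbi) and 4 in cavefish gut (acsl4b, acox3, fabp2 and dbi). None fell in either.

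Of 22 xenobiotic enzymes, 6 of 21 tested rose in surface gut (ugt5a1, mgst1.2, mgst3b, GSTP1 and both identifiers named gstt1b) and 1 of 20 tested in cavefish gut, the non-member gstt1b, ENSAMXG00000035085. Among 14 genes of lipoprotein assembly and lipid storage, apoa1a, plin2, ldlrb and mttp rose in surface gut, plin2 rose in cavefish gut, and apoba alone of the list fell in surface liver. The member pla2g12b, which also fell there, was not on this list. Of the gluconeogenesis genes, neither pck1 nor g6pca.2 was called in any age comparison. In surface gut the log2 fold change with age was -1.62 ± 0.79 SE for pck1 and -0.18 ± 0.47 SE for g6pca.2, and in cavefish liver it was 1.34 ± 0.90 SE and 1.15 ± 0.62 SE. Among 9 endoderm transcription factors, nr0b2b rose with age in surface gut and was lower in cavefish gut, and no other was called in an age or population comparison. For foxa3 the log2 fold change with age was 0.65 ± 0.55 SE in surface gut and 0.69 ± 0.73 SE in surface liver.

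Over the 8 comparisons, 43 members were called at least once and 57 never, where 29.1% of all genes with an adjusted p in any comparison and 40.3% of the 471 genes that met the level limits only were called at least once. Of those called, 15 had a name and 28 had none. Among the members never called were pck1, g6pca.2, diabloa, apoc2, cideb, cat, foxa3, KLF15 and ddit4, the inhibitor of mTORC1 that responds to stress. A missed threshold does not show that these genes were alike in the groups, and the pck1 values show how wide the spread between libraries could be.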

How the data were processed

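Reads of poly-T selected RNA had been mapped with STAR to an A. mexicanus assembly and counted per Ensembl gene by the authors. The deposited values are raw counts, not normalized, in 1 table per tissue. Strand and the handling of multiply mapped reads are not given in the sources used here. All 78 columns matched a sample. Total counts ranged from 8670536 to 20118504 in gut and from 9074319 to 16648992 in liver. Over 45 pairs of libraries of a group, chi-square divided by its degrees of freedom was 51.4 or more, so none repeated another.

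Groups came from the labels. Cave heart libraries 5 to 8 carry both age classes in their labels and were grouped as aged. The labels do not tie libraries to fish, so p-values measure only the spread between these samples. DESeq2 1.42.0 (R 4.3.3) was run with default filters on all genes of a tissue, for age within each population (as in the study's methods) and, over all 4 groups, for population with age as covariate and for their interaction, and p-values were adjusted by Benjamini-Hochberg over all genes. edgeR 4.0.16 (quasi-likelihood, TMM, filterByExpr) was run beside it, and both were tested on simulated data. Alternatives were TMM size factors, a mean of at least 10 counts, no independent filtering, 1 fit over all 4 groups, a replicate block, cave liver replicate 4 counted as aged, and leaving out each library.

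The members and lists were chosen with earlier results of these data known. Genes were named by a rule: the 12 highest ratios, the 3 largest called changes in each direction of each comparison, members called in both tissues or in at least 3 age comparisons, and the genes at ranks 100 and 101. Other members and listed genes named in the text were chosen after their values were seen, mostly because they had a name. No promoter or protein sequence was used here. Values of a few genes are not reported here.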

Additional observations from a re-analysis of the deposited data

Results flagged for a closer look

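In cave young heart replicate 1, which entered no comparison, the members took 1.14% of counts, against 0.254% to 1.73% in the other 15 heart libraries.

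The change with age was called different between populations, by the DESeq2 interaction test, in 6 members in gut. The interaction was 5.19 on the log2 scale for ENSAMXG00000036087, 2.92 for ENSAMXG00000010357, -1.20 for gstt1b, -1.48 for ENSAMXG00000005048, -1.93 for ENSAMXG00000039645 and -2.54 for scp2a. In liver it was 3.66 for ENSAMXG00000039005, 1.88 for ENSAMXG00000006024 and -2.63 for ENSAMXG00000011341. The edgeR test called only ENSAMXG00000036087 of these, and several of the other calls were lost when single libraries were left out, as given above.

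A library lay far from the other 3 of its group in 4 of the 83 groups of values examined, and chance gives about 1 such case in 20. The gap to the nearest library was 0.859 of the range for pck1 in surface young liver, where replicate 1 was high, 0.929 for mttp in surface young gut, where replicate 4 was low, and 0.858 and 0.913 for ENSAMXG00000034235 in surface aged liver (replicate 7 high) and cave aged liver (replicate 8 high).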

How the results depend on the processing

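The member list kept 65 of 100 genes when CPM were taken on TMM library sizes, 99 without the 6 other heart libraries above 1% on liver-specific genes, 93 without cave young liver replicate 4 and 100 with cave young heart replicate 1 kept, the last chosen after the data were seen. The edgeR test called 7 members with age in surface gut (main 17), 0 in cave gut (2), 0 in surface liver (11), 0 in cave liver (3), 4 for cave against surface in liver (8), 1 for the gut interaction (6) and 0 for the liver interaction (3). In cave gut, 1 was called without independent filtering and 0 in 1 fit over all 4 groups. With cave liver replicate 4 counted as aged, 1 was called in cave liver. No other alternative besides leaving out a library moved a count of calls by over 1.5 times.

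Deviations of same-numbered cave and surface libraries from their group means had correlations between -0.33 and 0.33, of both signs in each tissue. Differently numbered libraries were not compared, so this cannot show whether the numbers mark a pairing, and none was assumed. With the replicate block, 13 members were called for cave against surface in gut and 11 in liver. Of 65 called gene results, none changed sign under any alternative, 22 kept the call with edgeR, 64 with TMM size factors and 60 without independent filtering.

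Leaving out 1 library gave 14 to 24 calls with age in surface gut, 1 to 6 in cave gut, 9 to 16 in surface liver, 2 to 8 in cave liver, 11 to 17 for cave against surface in gut and 6 to 12 in liver, 2 to 12 for the gut interaction and 0 to 8 for the liver interaction. The mean member share ran from 4.84% to 6.29% in surface young, 3.73% to 7.56% in surface aged, 3.11% to 4.17% in cave young and 3.75% to 5.54% in cave aged gut. In liver it ran from 6.01% to 10.06%, 4.42% to 7.57%, 4.60% to 8.02% and 3.44% to 4.36% in the same order. The causes were not tested.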

Other observations

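Other lists of named genes of gut and liver were read beside the members. Of 6 genes of amino acid and one-carbon breakdown, gcshb and cthl rose with age in surface gut, where 6.54% of all genes did, and none was called with age in cavefish gut. Of 12 brush border and apical membrane genes tested in liver, 4 were higher in cavefish (mep1a.1, cldn15a, enpep and anpepb) and 1 was lower. Over all genes, 5% were higher and 3.1% lower. The gut-specific share of cave young liver replicate 4 stands beside these calls, and its part was not tested. Of 45 transporters tested in cavefish liver, 3 rose with age (slc7a3b, slc41a2b and the member slc25a38a), where 1.57% of all genes did. Of 74 tested in gut, 4 were higher and 9 lower in cavefish, where 6.04% and 7.17% of all genes were.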
